A study of Mus musculus with 6 samples.

Results

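Imprinted genes that control growth were read in RNA sequencing libraries of cells sorted from mouse bone marrow. The genes were picked by symbol, with no threshold on their values, and are 10 with known roles in growth and stem cell quiescence: H19, Igf2, Meg3, Dlk1, Grb10, Peg3, Ndn, Cdkn1c, Plagl1 and Mest. Of these, 9 were among the 17523 rows of the deposited count table, and the level of Peg3 was not analysed here. The study compared 3 libraries of wild-type (WT) C57BL/6 mice with 3 of NHD13 mice on the same strain, whose cells its title calls hematopoietic stem cells (HSCs). NHD13 stands for NUP98-HOXD13, a nucleoporin joined to a homeobox transcription factor, and the mice are a model of myelodysplastic syndrome. In the widely used strain of that name a blood-cell promoter, that of Vav1, drives the fusion throughout blood formation. The labels state neither the promoter, nor the age of the mice, nor the sort markers, nor whether replicates came from separate animals, so p-values measure only the spread between these libraries.

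Imprinted genes are transcribed mainly from the copy inherited from a single parent, set by DNA methylation laid down in the egg or the sperm. Paternally expressed genes such as Igf2, Dlk1, Peg3, Plagl1 and Mest tend to promote growth of the embryo, and maternally expressed genes such as H19, Grb10 and Cdkn1c tend to restrain it. In adult mouse marrow, H19 and Cdkn1c have been tied to the quiescence of long-term HSCs. The counts give the level of each gene and do not tell the parental copies apart.

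The row named for the fusion held 0 counts in every WT library and 185, 179 and 167 counts in NHD13 replicates 1, 2 and 3, as the labels give the groups. Library totals ran from 12541538 to 14388772 counts, and a row at 0 could still be at 0.237 counts per 1e+06 (CPM) in the shallowest library, taking 3 counts as its limit. Such limits, and the intervals given with ratios, hold for counting error alone. NHD13 replicate 1 stood apart from its group, with a chi-square per degree of freedom of 28.3 and 27.9 against NHD13 replicates 2 and 3. Those 2 differed by 3.46, and results are given without NHD13 replicate 1 where that matters. WT replicate 1 also lay farther from WT replicates 2 and 3, at 13.01 and 7.506, than these from each other, at 4.642. NHD13 replicate 1 was nearer to WT replicate 1, at 20.38, than to either other NHD13 library. Against WT replicates 2 and 3 it was at 42.63 and 35.09. Of 19 markers of HSCs and progenitors, 15 passed the filter on low counts described below. Among these Hlf had a mean of 15.03 CPM ± 1.51 over WT and 3.82 CPM ± 2.09 over NHD13 libraries, Cd34 of 175 CPM ± 3.12 and 47.0 CPM ± 17.7, and Mecom of 1.01 CPM ± 0.290 and 6.77 CPM ± 2.12 (SD, n = 3 each). Procr, Fgd5, Hoxb5 and Esam did not pass, with 14, 4, 2 and 25 counts in WT and 7, 4, 54 and 5 in NHD13. The markers thus ran both ways, and the text calls the cells by their source. Neutrophil markers summed to 32900 to 50900 CPM in WT libraries, so no level below is read as that of HSCs alone. In such bulk libraries fewer cells of a type and less RNA per cell cannot be told apart.

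Grb10 gave most of the counts of these genes and was lower in NHD13. It held 1117 counts in WT and 656 in NHD13, and made up 85.1% to 86.4% of the set's counts in WT libraries and 73.3% to 83.2% in NHD13 libraries. Mest came next, with 36 to 54 counts per library. The other 7 genes lay at or near the limit of detection in both groups, and together they held 12, 19 and 15 counts in WT replicates 1, 2 and 3 and 15, 20 and 16 counts in the NHD13 replicates. Only Grb10 and Mest passed the filter on low counts and could be tested across all genes. The libraries of the groups did not overlap for 3 of the 9, Grb10, Plagl1 and Ndn, all lower in NHD13. Among all tested genes 46.1% did not overlap and 22.6% were lower in every NHD13 library. That share is over genes that passed the filter, which Plagl1 and Ndn did not, so the 3 of 9 cannot be read against it.

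**Figure D1:**
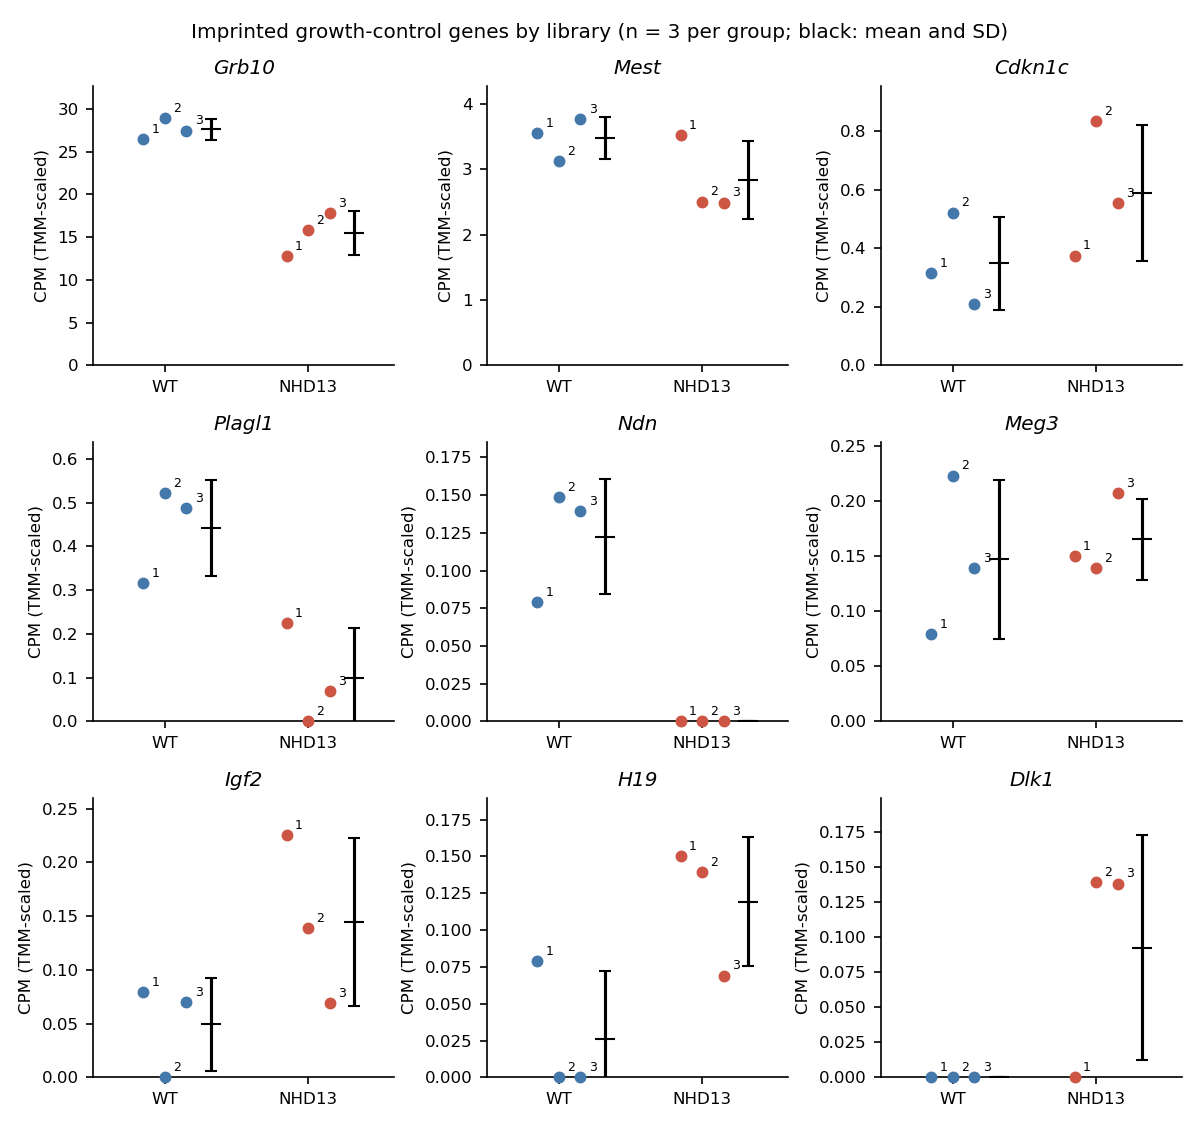
CPM scaled by TMM on the y axis for each of the 9 genes, by group on the x axis; points are libraries with their replicate number, and the black mark and bar are the mean and SD of 3. Grb10 lies between 26.5 and 28.9 CPM in WT and between 12.8 and 17.8 CPM in NHD13, and all other genes lie under 4 CPM.

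Levels between genes were compared per kilobase of annotated exon (RPKM). In WT the order was Grb10 at 3.04 RPKM ± 0.133, Mest at 0.883 ± 0.0823, Cdkn1c at 0.171 ± 0.0778, Plagl1 at 0.0565 ± 0.0141 and Ndn at 0.0332 ± 0.0103 (SD, n = 3 each). H19, Igf2 and Meg3 followed at 0.0107, 0.00866 and 0.00814 RPKM, and Dlk1 had no count. Neighbours in this order down to Plagl1 did not overlap between libraries, Plagl1 and Ndn were separated by 0.0404 against 0.0403 RPKM in their nearest libraries, and Ndn overlapped H19, which overlapped Igf2 and Meg3. In NHD13, Grb10 stood at 1.70 RPKM ± 0.282, Mest at 0.720 ± 0.151 and Cdkn1c at 0.288 ± 0.114, in the same order and again without overlap. H19, Igf2, Dlk1, Plagl1 and Meg3 followed at 0.0485, 0.0252, 0.0163, 0.0125 and 0.00915 RPKM, each overlapping the next, and Ndn had no count. All the genes after Cdkn1c rest on 7 counts or fewer per group in NHD13.

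**Figure D2:**
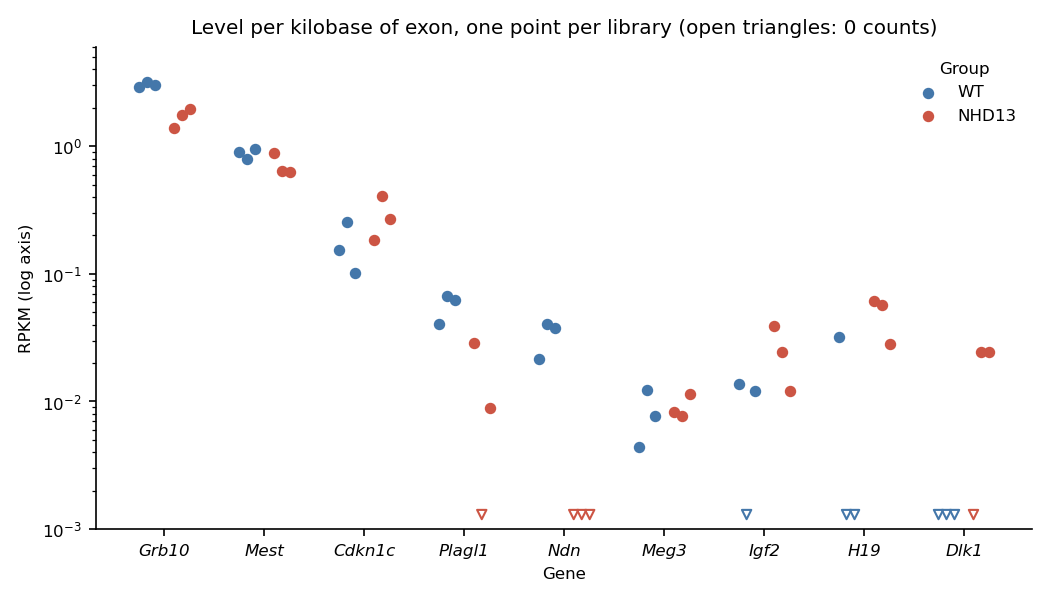
RPKM on a log axis for the 9 genes, with a point for each of the 3 WT and 3 NHD13 libraries and open triangles at the foot of the axis for libraries with 0 counts. Grb10 and Mest stand above 0.6 RPKM in every library and Cdkn1c above 0.1 RPKM, and the other 6 genes lie below 0.07 RPKM.

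Grb10 (chromosome 11, 11930508 to 12038683, minus strand, mm10) encodes an adaptor that binds the activated insulin and IGF1 receptors and dampens their signal. It is maternally expressed in most mouse tissues and paternally expressed in neurons, from separate start sites. Both RefSeq start regions are printed because the gene-level counts do not say from which of them the Grb10 RNA came. They are the 250 bases before each start on the minus strand (GRCm38.p6, the build of mm10), 5′ to 3′, in lower case throughout since neither holds the motif described below.
Grb10 distal start, chr11:12037421-12037670: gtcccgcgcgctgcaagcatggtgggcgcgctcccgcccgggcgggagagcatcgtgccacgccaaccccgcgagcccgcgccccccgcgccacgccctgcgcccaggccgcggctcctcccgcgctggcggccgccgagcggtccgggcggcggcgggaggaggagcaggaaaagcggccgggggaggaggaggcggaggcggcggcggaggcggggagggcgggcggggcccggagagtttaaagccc
Grb10 internal start, chr11:12027972-12028221: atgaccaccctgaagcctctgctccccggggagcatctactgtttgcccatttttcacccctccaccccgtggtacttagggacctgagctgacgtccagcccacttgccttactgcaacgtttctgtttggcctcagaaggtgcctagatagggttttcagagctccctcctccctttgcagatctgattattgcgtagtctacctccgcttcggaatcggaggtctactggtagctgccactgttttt

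The distal window held 40 CG dinucleotides, more than 98.7% of the 32851 RefSeq promoter windows of the mouse, and the internal window held 8, against a median of 6.

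Grb10 was at 26.5, 28.9 and 27.5 CPM in WT replicates 1, 2 and 3 and at 12.8, 15.9 and 17.8 CPM in NHD13 replicates 1, 2 and 3. Every NHD13 library lay below every WT library, and NHD13 replicate 1 was the lowest of all. The means were 27.6 CPM ± 1.21 and 15.5 CPM ± 2.56 (SD, n = 3 each), a 1.78-fold fall (log2 change -0.83, SE 0.13, edgeR quasi-likelihood adjusted p = 0.00296). Across the series 30.3% of the 12013 tested genes passed the same threshold and 15.3% passed it as lower, so a call like that of Grb10 was common in these libraries. The number of genes called lower ranged from 957 without WT replicate 2 to 2966 without NHD13 replicate 1. In size, 10.7% of the tested genes changed more. The call held in each fit without a library, with adjusted p between 8.3e-05 without NHD13 replicate 1 and 0.0227 without WT replicate 2. It did not hold when the share of Y-linked counts entered the fit (log2 change -0.66, adjusted p = 0.109). In that fit the log2 change of Grb10 was smaller, -0.66 against -0.83, and its SE larger, 0.19 against 0.13. It left 111 genes called higher and 175 lower of the 1799 and 1839 over all genes. The Y-linked share was 0.0109% to 0.0194% in WT and 0.0177% to 0.028% in NHD13 libraries, and its part in the fall was not tested beyond this fit.

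Mest (chromosome 6, 30723547 to 30748465) encodes a hydrolase-like protein of the endoplasmic reticulum and is paternally expressed in the embryo. Of its RefSeq start regions, that printed here holds the hexamer TGCCGC, the core bound by ZFP57 at methylated imprint control regions. The hexamer is marked in capitals on either strand (GCGGCA is its reverse complement). A region farther upstream, chr6:30733256-30733505, holds no copy, and the gene-level counts do not say from which start the Mest RNA came.
Mest, chr6:30737800-30738049, plus strand: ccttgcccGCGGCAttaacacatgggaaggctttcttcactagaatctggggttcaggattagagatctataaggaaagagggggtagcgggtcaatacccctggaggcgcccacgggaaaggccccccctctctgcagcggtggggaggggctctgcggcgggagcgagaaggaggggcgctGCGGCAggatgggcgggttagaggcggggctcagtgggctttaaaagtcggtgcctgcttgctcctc

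Mest was at 3.56, 3.13 and 3.76 CPM in WT replicates 1, 2 and 3 and at 3.53, 2.50 and 2.49 CPM in NHD13 replicates 1, 2 and 3. NHD13 replicate 1 lay within the WT range and the other NHD13 libraries below it. The log2 change was -0.30 (SE 0.22) and did not pass the threshold (edgeR adjusted p = 0.317). Without NHD13 replicate 1 it was -0.48 (adjusted p = 0.104), also not past it. Exons of Mest overlap those of Copg2 on the other strand, whose levels were 81.0 CPM ± 1.79 in WT and 72.5 CPM ± 1.79 in NHD13. Whether the counting used strand is not stated, so the reads of this overlap are uncertain.

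**Figure D3:**
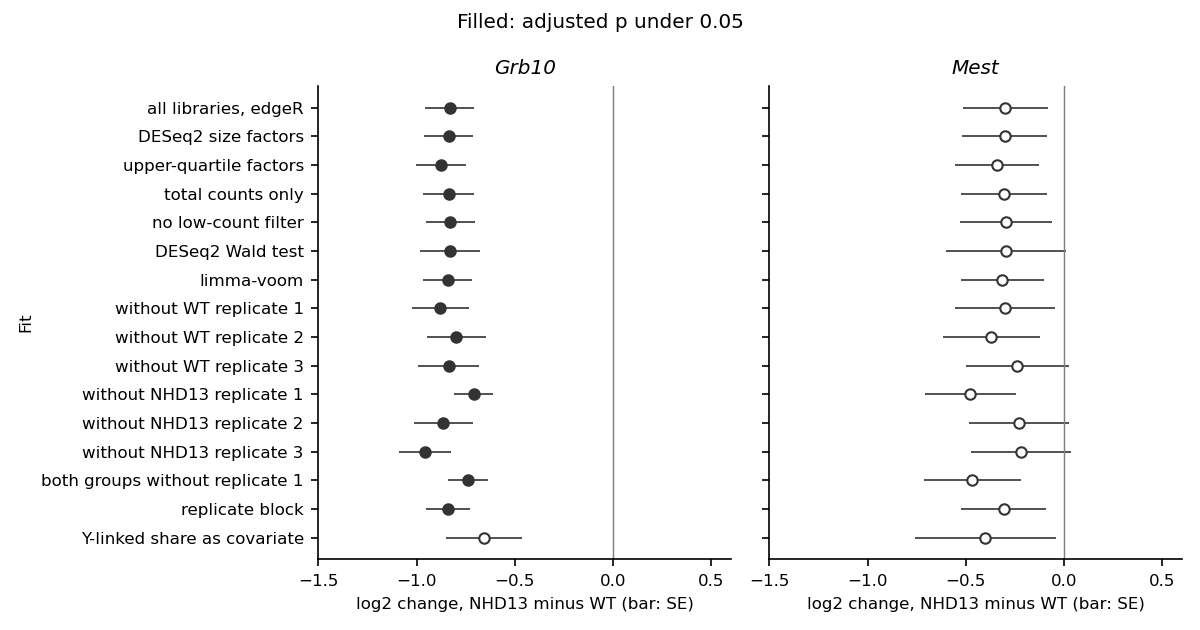
The log2 change from WT to NHD13 with its SE on the x axis for Grb10 (left) and Mest (right), with a row for each fit, and filled points where the adjusted p was under 0.05. Grb10 stays between -0.96 and -0.66 and is filled in every fit except that with the Y-linked share, and Mest is filled in none.

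Cdkn1c (chromosome 7, 143458339 to 143461050) encodes p57Kip2, the CDK inhibitor that holds adult HSCs in quiescence. It had 4, 7 and 3 counts in WT replicates 1, 2 and 3 and 5, 12 and 8 counts in NHD13 replicates 1, 2 and 3. The groups overlapped. The ratio of NHD13 to WT counts, scaled to library size, was 1.71 with a 95% counting interval of 0.856 to 3.56 (Clopper-Pearson), and an exact two-sided permutation test over the 6 libraries gave p = 0.2, where 0.1 is the smallest p that 3 against 3 libraries can give. That interval includes no change, and the counts do not exclude any ratio within it.

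Plagl1 (chromosome 10, 13060504 to 13131694) encodes ZAC1, a zinc finger transcription factor that arrests the cell cycle and regulates other imprinted genes. The region before its RefSeq start is shown for the same motif, of which it holds a single copy.
Plagl1, chr10:13090582-13090831, plus strand: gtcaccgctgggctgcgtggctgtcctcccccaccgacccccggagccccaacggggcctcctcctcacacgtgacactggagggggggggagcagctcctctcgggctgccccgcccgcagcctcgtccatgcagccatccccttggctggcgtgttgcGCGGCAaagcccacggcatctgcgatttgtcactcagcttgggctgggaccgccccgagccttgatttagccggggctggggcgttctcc

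Plagl1 had 4, 7 and 7 counts in WT replicates 1, 2 and 3 and 3, 0 and 1 counts in NHD13 replicates 1, 2 and 3. Every NHD13 library lay below every WT library, and the WT count was 4.69 times that of NHD13 after scaling, with a counting interval of 1.55 to 19.1. The exact permutation p was 0.1, the smallest possible. With no filter on low counts the gene did not pass the threshold (edgeR adjusted p = 0.0652, unadjusted 0.016), nor did it by DESeq2 (adjusted p = 0.155).

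TGCCGC was found on either strand in 4 of 15 RefSeq start windows of the 8 members that have them, Peg3 included, and in 8.68% of all windows of that length. Of the 4, 2 are windows of Mest that start 3 bases apart and hold the same copies, and the others belong to Plagl1 and Meg3. All copies read GCGGCA on the strand of the gene and none overlap.

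Ndn (chromosome 7, 62346569 to 62350262) encodes necdin, a growth suppressor of the MAGE family that restrains the cycling of mouse HSCs. It had 1, 2 and 2 counts in WT replicates 1, 2 and 3 and 0 in every NHD13 library. Set against a floor of 3 counts over the NHD13 group, the WT level was 1.74 times that floor. The counting interval of the NHD13 to WT ratio reached 1.05, so no change lies within it. The exact permutation p was 0.1, and without a filter on low counts the adjusted p was 0.101 in edgeR. All of this rests on 5 counts.

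Ndn lies in an imprinted domain of chromosome 7, the mouse counterpart of the Prader-Willi region, with the paternally expressed genes Mkrn3 and Peg12. Peg12, a homologue of the FRAT proteins of Wnt signalling, was at 2.37, 2.46 and 2.37 CPM in WT replicates 1, 2 and 3 and at 0.675, 0.348 and 0.484 CPM in NHD13 replicates 1, 2 and 3. All NHD13 libraries lay below all WT libraries, a 4.74-fold fall (log2 change -2.25, SE 0.29, edgeR adjusted p = 0.00151). With the Y-linked share in the fit the log2 change was -2.17 (adjusted p = 0.0579). Mkrn3, a ubiquitin ligase gene named after its values were seen, had 5, 11 and 8 counts in WT replicates 1, 2 and 3 and 2, 1 and 1 counts in NHD13 replicates 1, 2 and 3, again without overlap, and was too low to test. Ube3a, the ubiquitin ligase gene that is imprinted in neurons, had means of 90.2 CPM ± 9.31 in WT libraries and 102 CPM ± 8.27 in NHD13 ones (log2 change 0.17, SE 0.09, adjusted p = 0.193), and its libraries overlapped. Atp10a, a phospholipid flippase gene beyond Ube3a, fell 1.75-fold, from a WT mean of 47.9 CPM ± 3.99 to 27.4 CPM ± 7.91 in NHD13 (adjusted p = 0.0107). Its call did not hold without WT replicate 3 (adjusted p = 0.05), and with the Y-linked share in the fit the log2 change went from -0.81 to -0.96 (adjusted p = 0.111). Over all tested genes 22.6% lay lower in every NHD13 library, a share that leaves out genes below the filter such as Ndn and Mkrn3. Snrpn, Snurf and Magel2 of the same domain were not analysed here.

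**Figure D4:**
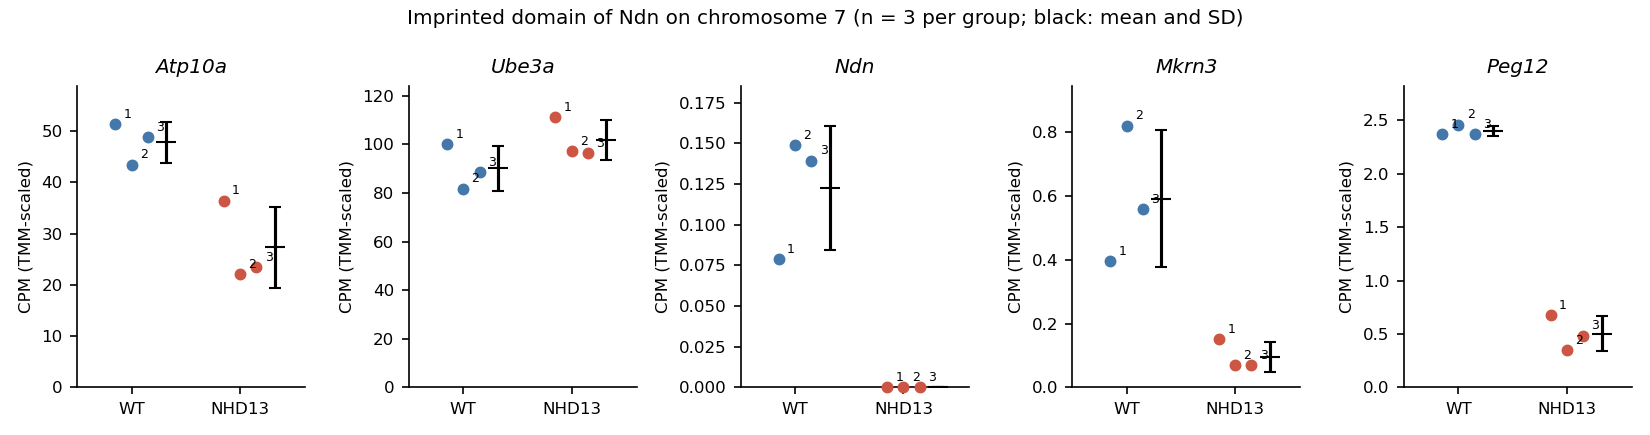
CPM scaled by TMM for 5 genes of the imprinted domain of Ndn, by group, with points for libraries and the mean and SD of 3 in black. Peg12, Mkrn3, Ndn and Atp10a lie lower in every NHD13 library than in any WT library, and Ube3a overlaps between 81.8 and 111 CPM. Of all tested genes 22.6% lay lower in every NHD13 library, and Ndn and Mkrn3 were too low to test.

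H19 and Igf2 lie beside each other on chromosome 7 and share an enhancer that their imprint directs to the maternal H19 or the paternal Igf2. H19 (142575529 to 142578143), a long noncoding RNA that is the precursor of miR-675, had 1, 0 and 0 counts in WT replicates 1, 2 and 3 and 2, 2 and 1 counts in NHD13 replicates 1, 2 and 3. Igf2 (142650766 to 142666816), the fetal growth factor, had 1, 0 and 1 counts in WT and 3, 2 and 1 in NHD13. Both overlapped between groups. The ratio of NHD13 to WT was 4.79 for H19 with a counting interval of 0.536 to 227, and 2.88 for Igf2 with an interval of 0.514 to 29.1 (exact permutation p = 0.2 and 0.3). Neither gene was above the floor of 3 counts in any library.

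Meg3 and Dlk1 are neighbours on chromosome 12, in a domain linked in mouse to the maintenance of fetal liver HSCs. Meg3 (109541001 to 109571726), a maternally expressed long noncoding RNA, had 1, 3 and 2 counts in WT replicates 1, 2 and 3 and 2, 2 and 3 in NHD13. Their ratio was 1.12 (counting interval 0.322 to 4.03, exact permutation p = 0.9). Dlk1 (109452823 to 109463336), a transmembrane protein related to the Notch ligands, had 0 counts in all WT libraries and in NHD13 replicate 1, and 2 counts in each of NHD13 replicates 2 and 3. Set against a floor of 3 counts over WT, the NHD13 level was 1.28 times that floor, on 4 counts in all (exact permutation p = 0.4). The counting interval of the NHD13 to WT ratio began at 0.633, so no change lies within it. Other transcripts of the domain were as scarce, with 2 counts for Rtl1, 5 for Rian and none for Mirg in the 6 libraries together.

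Across the 34 imprinted neighbours of these genes, 21 had a row and 11 were tested, of which 1 rose and 4 fell, with a median log2 change of -0.16 against 0.00 for all tested genes. Over all tested genes 15% rose and 15.3% fell, 30.3% together. The number called was 5, and 3 without NHD13 replicate 3. The 4 that fell were Peg12, Atp10a, Phactr2 and Slc22a18. Phactr2, a phosphatase and actin regulator gene next to Plagl1, fell 1.39-fold, from 87.6 CPM ± 2.83 in WT to 63.0 CPM ± 8.86 in NHD13 (adjusted p = 0.00925). Slc22a18, a transporter gene near Cdkn1c, went from 1.28 CPM ± 0.444 down to 0.402 CPM ± 0.0745 (adjusted p = 0.0137), and its call was lost without either WT replicate 2 or NHD13 replicate 3 (adjusted p = 0.0544 and 0.0546). Cd81, the tetraspanin gene on the same chromosome, rose 1.25-fold to 131 CPM ± 1.20 (adjusted p = 0.0181), and its call was lost without WT replicate 1 or 3 or NHD13 replicate 2 or 3 (adjusted p up to 0.0705). With the Y-linked share in the fit none of these 5 was past it, at log2 changes of -2.17 for Peg12, -0.96 for Atp10a, -0.51 for Phactr2, -1.34 for Slc22a18 and 0.45 for Cd81, against -2.25, -0.81, -0.48, -1.65 and 0.32 without it. Kcnq1ot1, the long antisense RNA that silences Cdkn1c on the paternal copy, was at 76.6 CPM ± 2.49 and 79.0 CPM ± 7.95 (adjusted p = 0.722). Copg2, which overlaps Mest, was also not past the threshold (adjusted p = 0.0808). Whether each gene of this list and the next is imprinted in these cells was not measured.

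Of 35 other imprinted genes, 28 had a row and 21 were tested, of which 3 rose and 2 fell, where 30.3% of all tested genes were called, with a median log2 change of 0.00. These 5 calls became 12 without NHD13 replicate 1, and 3 without WT replicate 2 or 3 or without NHD13 replicate 2 or 3. The fit without NHD13 replicate 1 called 3012 genes higher and 2966 lower of 12269 tested. Dhcr7, the last enzyme of cholesterol synthesis, rose from 27.9 CPM ± 2.18 to 51.7 CPM ± 5.93 (1.86-fold, adjusted p = 0.00098). Nespas, an antisense RNA of the Gnas locus, rose from 8 counts in WT to 47 in NHD13 (adjusted p = 0.00424), and the calls of Dhcr7 and Nespas held under every alternative run. Exons of Nespas overlap those of Gnas on the other strand, at 496 CPM ± 15.2 and 519 CPM ± 12.5, so its reads are uncertain. Herc3, a ubiquitin ligase gene, fell 1.64-fold (log2 change -0.72, adjusted p = 0.00478, and -0.51 and 0.166 with the Y-linked share in the fit) and Ppp1r9a from 7.39 to 5.25 CPM (adjusted p = 0.0362). The call of Ppp1r9a was lost without any library but NHD13 replicate 1, as was that of Pon2, a lactonase gene that rose from 62.4 to 75.3 CPM (adjusted p = 0.0436). In those fits the adjusted p reached 0.123 for Ppp1r9a and 0.17 for Pon2. Igf2r, the receptor that clears IGF2 and is maternally expressed in mouse, was at 77.7 CPM ± 6.50 and 96.1 CPM ± 17.6 (adjusted p = 0.109).

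**Figure D5:**
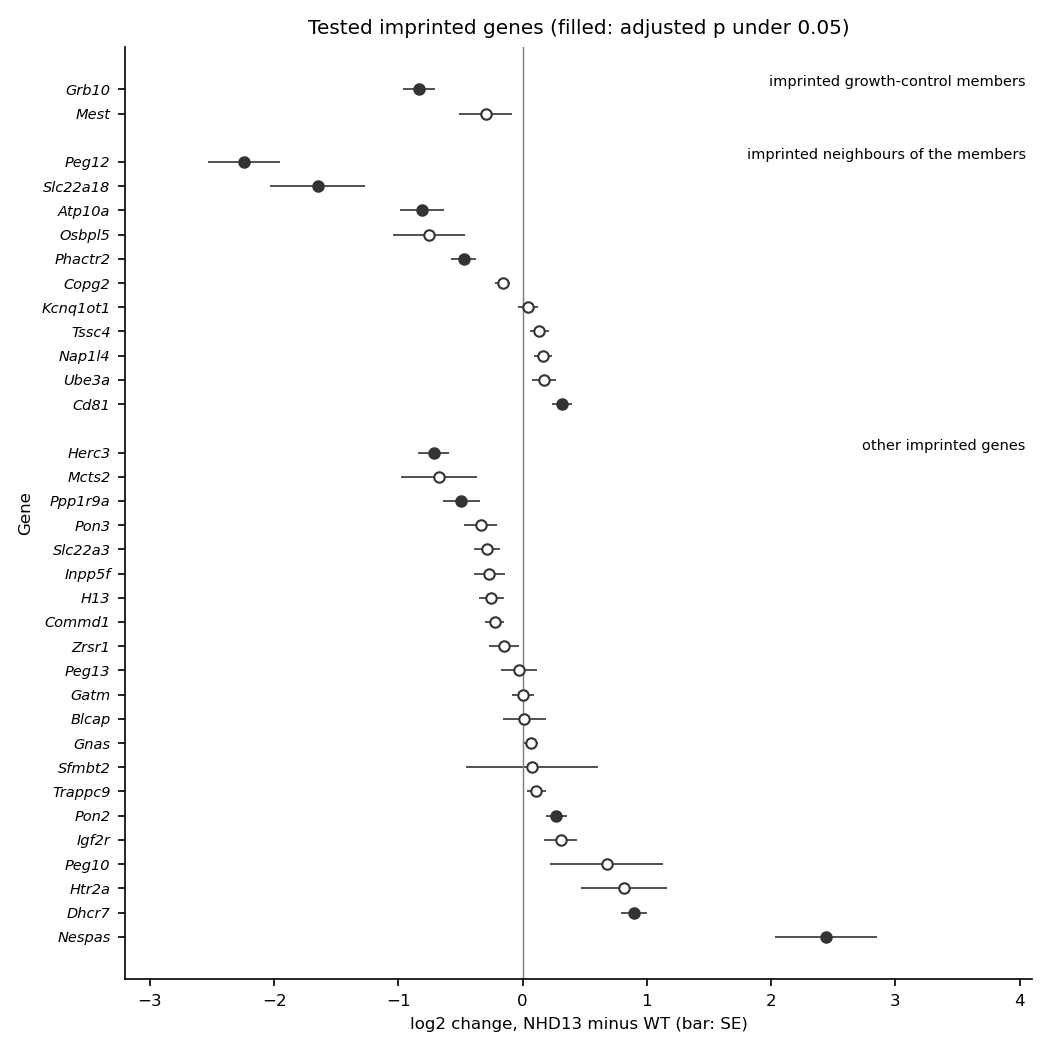
The log2 change from WT to NHD13 on the x axis with its SE as a bar for every imprinted gene that was tested, grouped by list, with filled points where the adjusted p was under 0.05. Peg12, at -2.25, lies farthest below 0 and Nespas, at 2.44, farthest above it.

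Grb10 acts on the receptors of insulin and IGF1. Of 24 genes of IGF and insulin signalling, 20 had a row and 15 were tested, of which 2 rose and 1 fell, against a background of 30.3% called, with a median log2 change of 0.05. The calls numbered 8 without NHD13 replicate 1 and 1 without NHD13 replicate 2. Over all genes, the former fit called 3012 higher and 2966 lower of 12269 tested, and the latter 760 and 1069 of 12207. Igf1r had a mean of 170 CPM ± 11.3 over WT and 149 CPM ± 26.2 over NHD13 libraries (adjusted p = 0.246), and Insr at 88.2 CPM ± 2.30 and 76.1 CPM ± 6.02 (adjusted p = 0.0597). The ligand Igf1 held 7 and 4 counts per group. Igf2bp3, an RNA-binding protein named for its binding of Igf2 messenger RNA, rose from a mean of 1.26 CPM ± 0.272 to 6.44 CPM ± 1.21 (adjusted p = 0.00064). Foxo3, a transcription factor that insulin signalling restrains, rose to 38.9 CPM from 29.0 (adjusted p = 0.0125). The call of Foxo3 was lost without NHD13 replicate 2 (adjusted p = 0.0577) and with the Y-linked share in the fit (log2 change 0.33 against 0.43, adjusted p = 0.25), and that of Igf2bp3 held under every alternative run.

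Of 14 genes of CDK inhibition and cycling, 12 were tested, of which 1 rose and 3 fell, a share near the 30.3% over all tested genes, with a median log2 change of -0.02. Without NHD13 replicate 1 there were 9 calls, in a fit that called 3012 genes higher and 2966 lower of 12269 tested. Cdkn1b, the paralogue of Cdkn1c that encodes p27Kip1, fell from 58.0 CPM ± 2.28 in WT to 45.8 CPM ± 1.09 in NHD13 (adjusted p = 0.00785). The inhibitor genes Cdkn2c and Cdkn2d went from 37.6 to 21.9 CPM (adjusted p = 0.00532) and from 65.4 to 49.2 CPM (adjusted p = 0.0213). The D-type cyclin gene Ccnd1 rose to 33.0 CPM from 18.4 (adjusted p = 0.00188). The call of Cdkn2d was lost without WT replicate 2 or 3 or NHD13 replicate 2 or 3 (adjusted p up to 0.0705), and with the Y-linked share in the fit only Ccnd1 of the 4 stayed called, while the log2 changes of Cdkn1b, Cdkn2c and Cdkn2d were -0.34, -0.85 and -0.30 against -0.34, -0.78 and -0.41 without it. Mki67, which marks cycling cells, was at 1701 CPM ± 68.4 and 1892 CPM ± 112 (adjusted p = 0.106).

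Of 21 genes that keep or erase imprints, 19 were tested, of which 3 rose and 3 fell, again near the 30.3% over all tested genes, with a median log2 change of 0.00. The calls numbered 11 without NHD13 replicate 1, 2 without WT replicate 1 and 1 without any other library. Without NHD13 replicate 1, 3012 genes were called higher and 2966 lower of 12269 tested. Tet1, which oxidises methylated cytosine, fell from a mean of 21.6 CPM ± 0.922 to 12.7 CPM ± 2.05 (adjusted p = 0.0045). Dnmt3l, a partner of the methyltransferases that set imprints, fell from 1.53 to 0.737 CPM (adjusted p = 0.0221), and Uhrf1, which guides maintenance methylation, rose to 458 CPM from 375 (adjusted p = 0.0253). Trim28, the corepressor that ZFP57 recruits, rose to 440 CPM ± 4.35 from 390 CPM ± 11.2 (adjusted p = 0.0414), and Ezh2 (higher) and Tet2 (lower) also passed (0.0414 and 0.0451). The calls of Trim28 and Ezh2 were lost with upper-quartile scaling (adjusted p = 0.0898 and 0.0835) and total-count scaling. Of these 6 calls, that of Tet1 alone held in every fit without a library, and none held with the Y-linked share in the fit, where the log2 change of Tet1 was -0.78 against -0.76. Zfp57 itself had 15 counts in WT and 10 in NHD13.

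Grb10 was followed most closely across the 6 libraries by Fam184a (Pearson r = 0.998) and by the RNA-binding protein gene Khdrbs3 (r = 0.995), out of 11168 genes compared. Fam184a went from 1.73 CPM ± 0.129 to 0.139 CPM ± 0.138 and Khdrbs3 from 7.59 CPM ± 0.835 to 2.78 CPM ± 0.858. Mest was followed most closely by Tmem165 (r = 0.998), at 121 CPM ± 9.70 and 102 CPM ± 16.5, and by Frmd7 (r = 0.995). Of the 11168 genes, 200 had r over 0.95 with Grb10 and 117 with Mest. These values rest on 6 libraries, and the points share the groups and the library scaling.

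Markers of other cells moved between the same libraries as Grb10. Over all tested genes 15% were higher and 15.3% lower, 30.3% together. Calls in the megakaryocyte, stromal and endothelial lists are too few to set against that share. Without NHD13 replicate 1, 3012 genes were called higher and 2966 lower of 12269 tested. The summed level of 9 mast cell and basophil markers was 424 to 729 CPM in WT and 94.9 to 148 CPM in NHD13, with 6 of 7 tested members lower, among them Mcpt8, Fcer1a, Cpa3 and Prss34. Neutrophil markers summed to 32900 to 50900 and 22500 to 31200 CPM (8 of 10 lower, among them Retnlg, Ltf, Lcn2 and S100a8, but 0 past the threshold without NHD13 replicate 1 and 3 without WT replicate 2 or 3), and lymphoid markers to 23.2 to 33.1 and 14.2 to 19.6 CPM (4 of 5 lower, namely Il7r, Ncr1, Klrd1 and Cd79b). Erythroid markers summed to 1010 to 1140 and 1180 to 2100 CPM (4 of 7 higher, among them Klf1, Epor and Ermap, and 7 called without NHD13 replicate 1), and megakaryocyte markers to 67.7 to 81.1 and 60.4 to 79.4 CPM (Pf4 higher and Itga2b lower of 8, and 1 called without NHD13 replicate 1 or 2 or WT replicate 2 or 3). HSC and progenitor markers summed to 577 to 613 and 410 to 448 CPM, with 3 of 15 higher and 7 lower, among them Mecom higher and Tie1, Meis1 and Cd34 lower. Much of the fall in that sum was that of Cd34, whose levels are given above. The part of these shifts in the fall of Grb10 was not tested. Stroma is a known source of several imprinted RNAs. Among 15 stromal and osteoblast markers Sp7 was at 0 in all libraries, Col3a1, Pdgfra and Lum at 0 in WT and Ibsp and Sparc at 2 counts or fewer in each group, while Col1a1, Lepr and Pdgfrb were measured at 1.18, 3.42 and 10.7 CPM in WT. Their sum of 65.5 to 86 CPM in WT and 31.2 to 44.1 CPM in NHD13 was mainly Runx2, the only called member of 4 tested (2 called without NHD13 replicate 1), which dropped to 22.9 CPM ± 4.41 from 59.4 CPM ± 9.60 (adjusted p = 0.000843). Endothelial markers summed to 127 to 146 and 114 to 137 CPM (Pecam1 lower and Eng higher of 4 tested, Eng losing its call without any library but NHD13 replicate 1), and Cdh5, which defines endothelium, had 9 counts in WT and 0 in NHD13.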

How the data were processed

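RNA of cells sorted by FACS from mouse bone marrow was sequenced in 3 WT and 3 NHD13 libraries. The authors deposited 1 table of unnormalised counts, with a row per gene symbol and only whole numbers. The tools Bowtie2 2.2.1 and HTSeq 0.5.4p3 and the build mm10 come from the submitters' processing notes. No source used here gives the annotation or the strand setting, and reads of overlapping genes are uncertain for that reason. Columns were matched to samples by group letters and replicate number.

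NHD13 was compared with WT in edgeR 4.0.16 (R 4.3.3). The filter filterByExpr with a minimum count of 10 left 12013 genes and set 5510 aside. Counts were scaled by TMM and tested by the quasi-likelihood F test with robust estimation, with Benjamini-Hochberg adjustment over all tested genes and a threshold of 0.05. SEs were obtained by dividing the log2 change by √F, and CPM values are TMM-scaled. RPKM divides these by the union of exons in GENCODE vM21 (GRCm38), which also gives the positions. For genes below the filter, ratios of summed counts have exact 95% intervals. Promoter windows come from RefSeq (GRCm38.p6), with 8 members matched by symbol. Likeness is Pearson's r of log2 CPM (prior count 2).

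The text names the 10 members, the 2 genes most like each tested member, and up to 4 genes of each of 13 other lists with the lowest p among those past the threshold. Any other is the next called gene of a short list or was named after its values were seen. Of 231 list entries 28 had no row. The members and lists were chosen with earlier results of these data known, and no list was tested as a set. Some called genes of the lists are counted but not reported here by name. Alternatives were 3 other scalings, no filter, DESeq2 1.42.0, limma-voom (limma 3.58.1), each library left out, replicate 1 of both groups left out, the replicate number as a block, and the share of counts on the Y-linked genes Ddx3y, Eif2s3y, Kdm5d and Uty as a covariate. No 2 replicates agreed within sampling noise (chi-square per degree of freedom of at least 3.46), so all 6 were kept.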

Additional observations from a re-analysis of the deposited data

How the results depend on the processing

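The number of members past the threshold, 0 higher and 1 lower (Grb10), was the same in every fit except that with the Y-linked share added, where 0 were lower. The log2 change of Grb10 ranged from -0.96 to -0.71 with a library left out and that of Mest from -0.48 to -0.22, never past the threshold. The difference in the summed level of the members, -12.7 CPM, lay between -13.8 and -11.6 CPM when a library was left out, and between -13.5 and -12.3 CPM over the other 4 settings that gave it. With no low-count filter, none of the 7 members set aside passed. With DESeq2, 5 of them had no adjusted p because of its own filter.

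Over all genes, 1799 were higher and 1839 lower, 760 to 3012 and 957 to 2966 with a library left out. Without replicate 1 of both groups 3244 were higher and 3245 lower, and with the Y-linked share added 111 and 175. The counts of called genes in the lists with a library left out were 3 to 6 for imprinted neighbours, 3 to 12 for other imprinted genes, 1 to 8 for IGF signalling, 3 to 9 for CDK inhibition, 1 to 11 for imprint maintenance, 7 to 11 for HSC and progenitor, 1 to 2 for stromal, 1 to 3 for endothelial, 0 to 10 for neutrophil, 3 to 7 for erythroid and 1 to 3 for megakaryocyte genes. Without replicate 1 of both groups they were 8 for imprinted neighbours, 13 for other imprinted genes, 8 for IGF signalling, 9 for CDK inhibition, 11 for imprint maintenance, 2 for stromal and 7 for erythroid genes. With the Y-linked share added they were 0 for imprinted neighbours, imprint maintenance, stromal, endothelial, neutrophil, erythroid and lymphoid genes, 1 for IGF signalling, CDK inhibition and megakaryocyte genes, 2 for other imprinted genes and 4 for HSC and progenitor genes. With no low-count filter 2 neutrophil genes were called. The cause of these shifts was not tested.

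Replicate numbers were checked as a possible pairing of the libraries, which the main fit does not use. Deviations from the group means correlated at 0.249, 0.0632 and 0.175 for numbers 1, 2 and 3. Between unlike numbers the correlations ran from -0.235 to 0.149, and whether the numbers pair the libraries was not tested. With the number as a block, 2007 genes were higher and 2233 lower, 9 other imprinted genes, 5 IGF genes, 6 erythroid, 3 endothelial and 3 megakaryocyte genes were called, and Grb10 stayed past the threshold (adjusted p = 0.000934). Depth limits all statements on the 7 genes with 25 or fewer counts per group.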
